A study of Mus musculus with 5 samples.

Results

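The 200 interior autosomal bins described here are the 1 Mb windows of the mouse genome in which chromatin immunoprecipitation (ChIP) for SIRT7 gave the most reads relative to input chromatin in wild-type (WT) cells. They were chosen on the mean of log2(ChIP/input) over both WT ChIP libraries, each library being divided by its autosomal total first. Of the 2738 bins in the deposited count table, 1617 were eligible. These lie on 14 chromosomes (1 to 11, 13, 14 and 17), start at or after 15000000, are not among the last 12 bins of their chromosome, and hold a mean of at least 100 reads. The 200 highest make up 12.4% of the eligible bins, and the other 1417 eligible bins are the comparison used throughout. The WT values chose the bins, so they are given as a description with no test.

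The cells were female mouse cells that the labels call TTF, without spelling it out, of a C57BL6/CAST hybrid strain. Every library comes from such cells, and no other treatment is given. The 5 libraries fall into 4 groups: WT cells with anti-SIRT7 ChIP (2 libraries), SIRT7-KO cells with the same antibody (1 library), WT input (1 library) and SIRT7-KO input (1 library). The labels name the knockout as SIRT7-KO and describe neither its allele nor its clones, and leave unsaid whether each WT library is a culture of its own. A p-value here therefore speaks of library-to-library spread, part or all of which may be technical. DNA read in 1 Mb bins holds no RNA level, so the labelled cell type could not be checked against its markers.

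SIRT7 is a sirtuin, an NAD+-dependent deacylase of the nucleus that is concentrated in the nucleolus. It is known for its association with the RNA polymerase I machinery at ribosomal RNA genes and for removing acetyl groups from histone H3 at promoters, among them promoters of ribosomal protein genes that the ETS-family factor ELK4 binds. An antibody ChIP in cells without the target protein measures what the procedure recovers when that protein is missing. The KO library was not used to choose the bins, and its comparison with KO input is the only one tested here.

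The WT ChIP libraries held 174003957 and 167007601 reads and the inputs 224205689 (WT) and 219168466 (KO), whereas KO ChIP held 4968189. The Sirt7 gene lies in the bin chr11:120000001-121000000, which is not eligible. That bin gave a log2(ChIP/input) of 0.20 and 0.21 in WT and 0.26 in KO, with a counting error of 0.036 in KO. A window of this size cannot show the knockout. The share of reads assigned to genome1, 1 of the 2 parental genomes, lay nearer to the WT ChIP value in the KO ChIP library than in the KO input on 18 of 19 autosomes. Expressed as a share of WT-like reads in the KO ChIP library, the shift corresponds to 7.34%, and the main KO values are also given after subtracting it. The sources used here do not say which of genome1 and genome2 is C57BL6.

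To show what kind of start site lies at both ends of the range, the promoters nearest to the middle of the highest and of the lowest bins were taken from RefSeq (GRCm38.p6), as 250 bases before to 50 bases after the start, 5′ to 3′ on the gene's strand, with each CpG in capitals. CpG dinucleotides mark CpG islands, which are found at most promoters of widely expressed genes. The first 3 sequences come from the bins ranked 1 to 3. They are Kazn, encoding kazrin, a protein of cell junctions (chr4:142239352-142239651, minus strand), Grik3, encoding a kainate-type glutamate receptor subunit (chr4:125490446-125490745, plus strand), and Arhgef10l, encoding a guanine nucleotide exchange factor (chr4:140665838-140666137, minus strand). The other two come from the 2 lowest eligible bins. They are Col19a1, encoding a collagen chain (chr1:24587388-24587687, minus strand), and Gad2, encoding an enzyme of GABA synthesis (chr2:22622077-22622376, plus strand). The third-lowest bin, chr10:16000001-17000000, has no entry.
Kazn: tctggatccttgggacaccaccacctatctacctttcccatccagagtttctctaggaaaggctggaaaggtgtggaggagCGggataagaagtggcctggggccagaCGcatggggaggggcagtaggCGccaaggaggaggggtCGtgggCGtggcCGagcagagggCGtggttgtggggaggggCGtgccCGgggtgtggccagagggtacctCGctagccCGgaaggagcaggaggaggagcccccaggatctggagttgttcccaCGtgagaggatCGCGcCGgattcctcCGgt
Grik3: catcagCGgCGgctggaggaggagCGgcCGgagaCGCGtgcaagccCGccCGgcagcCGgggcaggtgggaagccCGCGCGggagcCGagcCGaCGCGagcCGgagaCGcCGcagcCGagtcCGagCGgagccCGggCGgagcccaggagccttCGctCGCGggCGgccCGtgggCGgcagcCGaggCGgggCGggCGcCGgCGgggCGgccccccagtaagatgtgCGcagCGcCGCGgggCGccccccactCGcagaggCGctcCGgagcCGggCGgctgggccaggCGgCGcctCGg
Arhgef10l: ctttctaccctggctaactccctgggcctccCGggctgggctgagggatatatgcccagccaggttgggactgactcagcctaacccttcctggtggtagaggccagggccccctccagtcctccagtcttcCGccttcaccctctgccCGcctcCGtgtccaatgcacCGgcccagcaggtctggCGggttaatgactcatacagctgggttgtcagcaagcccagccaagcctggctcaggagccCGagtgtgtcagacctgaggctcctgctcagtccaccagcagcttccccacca
Col19a1: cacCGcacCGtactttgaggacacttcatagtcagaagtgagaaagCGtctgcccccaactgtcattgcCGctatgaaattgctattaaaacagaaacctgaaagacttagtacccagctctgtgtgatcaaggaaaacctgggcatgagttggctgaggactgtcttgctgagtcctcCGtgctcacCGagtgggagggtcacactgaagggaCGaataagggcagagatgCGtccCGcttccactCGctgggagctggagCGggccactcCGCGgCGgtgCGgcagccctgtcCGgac
Gad2: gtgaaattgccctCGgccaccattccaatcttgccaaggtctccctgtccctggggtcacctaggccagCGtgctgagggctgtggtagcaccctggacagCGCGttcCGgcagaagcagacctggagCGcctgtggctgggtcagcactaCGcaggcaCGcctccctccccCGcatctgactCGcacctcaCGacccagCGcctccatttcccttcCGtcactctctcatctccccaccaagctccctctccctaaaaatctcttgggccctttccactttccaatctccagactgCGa

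The Grik3 promoter held 50 CpG and a GC content of 82.0%, and Kazn held 16 CpG and 64.3%. The Arhgef10l promoter, in the bin with the highest KO value, held 7 CpG. Col19a1 and Gad2 held 16 and 14 CpG, so the promoters from the low bins lie within the range of those from the high bins. The bin of Col19a1 had log2(ChIP/input) values of -0.94 and -0.84 in WT and -0.65 in KO, the lowest of all eligible bins in WT.

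The bins highest in WT ChIP were also above input in the KO ChIP library. Their median log2(ChIP/input) was 0.20 in WT ChIP 1, 0.19 in WT ChIP 2 and 0.19 in KO ChIP, which correspond to 1.15, 1.14 and 1.14 times the input of the same genotype. In the other eligible bins the medians were -0.025, -0.037 and -0.034. The KO value of the 200 bins ranged from -0.073 to 0.51 with quartiles of 0.14 and 0.25. It was above 0 in 197 of 200 bins (98.5%) and in 530 of the 1417 other bins (37.4%).

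In the edgeR quasi-likelihood test of KO ChIP over KO input with Benjamini-Hochberg adjustment, 175 of the 200 bins were called above input, against a background of 21.6% of all 2582 tested bins. None was called below input, where the background was 28.7%. Without adjustment edgeR also gave 0 of the 200 below input at p under 0.05, as did DESeq2 and limma-voom. Of all 2582 tested bins, 821 were below input at that threshold in edgeR, 686 in DESeq2 and 439 in limma-voom. Of the other eligible bins, 162 (11.4%) were called above and 470 below. For the log2(ChIP/input) values each library is divided by its autosomal total, so 0 is the average of the library and high bins lower the value of the rest. For the edgeR calls the libraries were scaled by TMM (trimmed mean of M values) over autosomal and X bins instead. In neither is 0 an absolute level. With the estimated WT reads subtracted, 175 of the 200 were called above input, against a background of 21.5%, and the median log2 was 0.19.

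The number called depends on the estimate of spread, which has 1 residual degree of freedom, supplied by the 2 WT ChIP libraries, while the KO groups have 1 library each. DESeq2 called 173 of the 200 above input (background 21.0%) and limma-voom 122 (background 10.2%). Without a floor on the dispersion edgeR called 85 (background 6.31%), and a quasi-Poisson fit called 24 (background 1.55%). By each of these, a larger share of the 200 bins than of all tested bins was called.

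**Figure D1:**
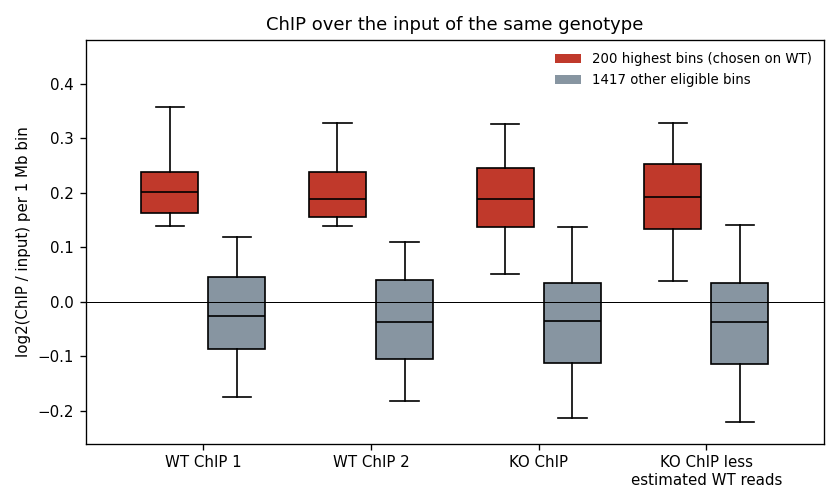
Boxes show the quartiles and median, and whiskers the 5th and 95th percentiles, of log2(ChIP/input) per 1 Mb bin in each ChIP library and in the KO ChIP library after subtraction of estimated WT reads. The 200 highest bins (red) have medians of 0.20, 0.19, 0.19 and 0.19, and the 1417 other eligible bins (grey) have medians below 0. The WT boxes were separated by the choice of bins and the KO boxes were not.

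Summed over the 200 bins, the share of autosomal reads was 8.32% (8.320 to 8.329) in WT ChIP 1, 8.27% (8.265 to 8.274) in WT ChIP 2 and 8.38% (8.352 to 8.402) in KO ChIP. In the inputs it was 7.16% in WT and 7.31% in KO. The intervals are exact binomial 95% intervals and reflect counting error alone, because PCR copies are not marked in the counts. The excess over input was thus 1.16-fold and 1.15-fold in WT and 1.15-fold in KO. The files do not resolve where inside a bin the excess lies.

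Both numerator and denominator differed between the highest and the other bins. The median ChIP count of a bin was 62942.5 against 58206 reads in WT ChIP 1, 60010.5 against 55479 in WT ChIP 2, and 1902.5 against 1703 in KO ChIP, which is 8.14%, 8.17% and 11.7% more. For input, the highest bins had a median of 69852.5 (WT) and 73249.5 (KO) reads against 76083 and 78476 in the others, a difference of -8.19% and -6.66%. The WT differences follow at least in part from the choice of bins, which favours high WT ChIP and low WT input and in which the KO libraries took no part. The part of input coverage in the result was not tested. The WT input was also lower relative to the KO input in the highest bins, by a median log2 of -0.046, against 0.013 in the others. Without the bins of chromosome 4 this median was -0.0078, and for ranks 101 to 200 it was -0.0018. What sets this difference between the inputs was not tested.

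The bin with the highest WT values was chr4:142000001-143000000, which holds the starts of Kazn and of Tmem51, encoding a transmembrane protein. It had 61974 and 58656 reads in WT ChIP, 58181 in WT input, 1901 in KO ChIP and 64500 in KO input. These give a log2(ChIP/input) of 0.45 and 0.43 for WT and of 0.38 for KO, the last with a counting error of 0.034. In edgeR the KO difference was 0.37 (SE 0.040, adjusted p = 3.944e-18). It ranked first in WT but below 5 other bins in KO.

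The second bin, chr4:125000001-126000000, holds Grik3, Meaf6 (a subunit of histone acetyltransferase complexes), Gnl2 (a nucleolar GTPase of ribosome assembly) and Dnali1. It had 63758 and 60579 reads in WT ChIP, 60254 in WT input, 2039 in KO ChIP and 66444 in KO input. These give 0.44 and 0.43 in WT and 0.43 in KO, so the 3 libraries differed by less than the counting error of the KO value.

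The third bin, chr4:140000001-141000000, holds Igsf21, Arhgef10l and the peptidylarginine deiminase genes Padi1 and Padi2, whose products convert arginine to citrulline in proteins. It had 63081 and 60396 reads in WT ChIP, 60156 in WT input, 2113 in KO ChIP and 65175 in KO input. Its value was 0.43 in both WT libraries and 0.51 in KO, the highest KO value of the 200. The edgeR estimate was 0.51 (SE 0.039, adjusted p = 4.04e-35).

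Of the other bins ranked 4 to 10, 4 lie on chromosome 5. The bin at chr5:112000001-113000000, with Myo18b, Sez6l, Grk3 and Tpst2, had 0.42 and 0.41 in WT and 0.31 in KO. The bin at chr5:120000001-121000000 carries Lhx5, a LIM-homeobox transcription factor gene, and had 0.39 and 0.39 in WT and 0.40 in KO. The neighbouring bin chr5:119000001-120000000 holds Tbx3 and Tbx5, T-box transcription factor genes of limb and heart development, and had 0.36, 0.33 and 0.40. In both bins with these developmental regulators the KO value lay above both WT values. The bin chr5:128000001-129000000, with Rimbp2, Stx2, Piwil1 and the Wnt receptor gene Fzd10, had 0.40 and 0.36 in WT and 0.40 in KO.

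The seventh bin, chr2:169000001-170000000, holds only the start of Tshz2, a zinc-finger homeobox gene. It had 85475 and 79477 reads in WT ChIP, 83130 in WT input, 2276 in KO ChIP and 84928 in KO input, or 0.40, 0.36 and 0.24 in WT 1, WT 2 and KO. Its KO value was the lowest among the 10 highest bins and was still called (edgeR adjusted p = 3.316e-09). The remaining bins were chr17:27000001-28000000, with the ribosomal protein gene Rps10 (0.37, 0.37 and 0.37), and chr4:131000001-132000000, with Epb41, Ptpru, the splicing factor gene Srsf4 and Mecr (0.37, 0.34 and 0.37). All 10 were called above input in KO, with adjusted p from 4.04e-35 to 3.316e-09.

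The KO value followed the WT rank. The median KO log2 was 0.31 for ranks 1 to 20, 0.23 for ranks 21 to 100 and 0.15 for ranks 101 to 200. It was 0.11 for the 100 bins just below (ranks 201 to 300) and 0.085 for ranks 301 to 400. In edgeR, 20 of 20, 76 of 80 and 79 of 100 bins of the first 3 classes were called above input, and 58 of 100 of ranks 201 to 300. The threshold at rank 200 thus cuts a gradient. Bins just inside it were chr6:121000001-122000000 (0.15 and 0.13 in WT, 0.075 in KO), chr5:30000001-31000000 (0.13, 0.15 and 0.13) and chr17:26000001-27000000 (0.13, 0.15 and 0.14). Just outside were chr7:124000001-125000000 (0.16, 0.12 and 0.077), chr2:164000001-165000000 (0.13, 0.14 and 0.15) and chr11:97000001-98000000 (0.12, 0.15 and 0.25). The WT mean was 0.1375 in the last bin inside and 0.1368 in the first outside.

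**Figure D2:**
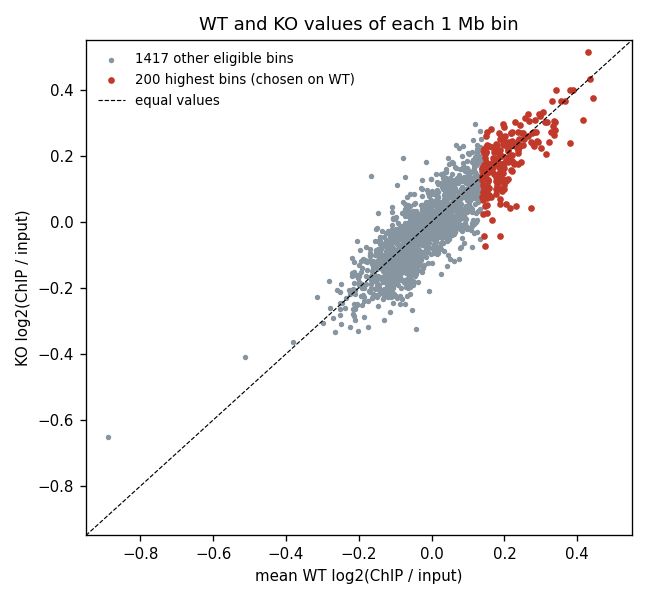
Each point is a 1 Mb bin, with the mean WT log2(ChIP/input) on the x axis, the KO log2(ChIP/input) on the y axis and a dashed line of equal values. The 200 highest bins (red) begin at 0.137 on the x axis by their choice, and 197 of them lie above 0 on the y axis, where 530 of the 1417 other bins (grey) do.

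Across the 200 bins the WT mean and the KO value had a Pearson r of 0.71 and a Spearman correlation of 0.67, and across all 1617 eligible bins r was 0.87. The choice of bins narrows the range of the WT values within the 200, where the WT libraries had r = 0.95 with each other. These are descriptions across bins, which are not independent replicates, and the points share the genome sequence and, for the WT libraries, 1 input.

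Some bins were high in WT and near or below 0 in KO, and the 5 lowest in KO are given first. The lowest KO value was that of chr8:93000001-94000000, with Gnao1, encoding a G-protein alpha subunit of neurons, and the carboxylesterase genes Ces5a and Ces1g. It had 62688 and 59034 reads in WT ChIP, 72122 in WT input, 1790 in KO ChIP and 82871 in KO input, or 0.16, 0.13 and -0.073, with a KO counting error of 0.034. It was not called below input (edgeR adjusted p = 0.09581). The other two bins below 0 were chr7:40000001-41000000, with Vstm2b (0.22, 0.15 and -0.043), and chr8:48000001-49000000, with Tenm3 and Dctd (0.17, 0.12 and -0.042). Next came chr11:34000001-35000000, with Foxi1, Dock2, Insyn2b and Lcp2 (KO 0.0042), and chr14:66000001-67000000, with Adra1a, Ptk2b, Dpysl2 and Adam2 (KO 0.023). None of these 5 was called in KO, with adjusted p between 0.09581 and 0.989.

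Of the 25 bins not called in KO, 21 were in ranks 101 to 200. The uncalled bin ranked highest in WT was chr9:47000001-48000000, with Cadm1, at rank 35. It had 0.30 and 0.25 in WT and 0.041 in KO, and its WT minus KO of 0.23 was the largest of the 200 bins. Where a KO value is near 0, the KO library limits what can be seen, since its counting error had a median of 0.033 per bin. On counting error alone, the lower 95% bound of the KO value was above 0 in 184 of the 200 bins (92.0%) and in 244 of the 1417 others (17.2%).

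Set side by side, WT and KO differed little over these bins, and no test was made because the WT values chose the bins. The median of WT minus KO was 0.014 in the 200 bins and 0.0082 in the others. The KO value was above both WT values in 70 of the 200 bins, below both in 108 and between them in 22. Among the 1417 other eligible bins it was above both in 563 and below both in 690. The spread between the WT medians of the 200 bins, 0.0093 (SD, n = 2), is similar in size to their median of WT minus KO. With TMM scaling the median difference in these bins was 0.025. With the 200 bins chosen again on the remaining WT library, it was 0.0042 without WT ChIP 1 and 0.022 without WT ChIP 2. By number of protein-coding genes, the median of WT minus KO in the 200 bins was 0.036 with 0 to 1 genes, 0.047 with 2 to 4, 0.035 with 5 to 8, 0.013 with 9 to 14 and -0.0084 with 15 to 66. In the other eligible bins it went from 0.029 in the first of these classes to -0.016 in the last.

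The highest bins were unevenly spread over the chromosomes. Chromosome 5 held 37 of them, 29.6% of its 125 eligible bins, chromosome 7 held 27 (22.7%), chromosome 4 held 21 (16.2%) and chromosome 17 held 14 (20.6%). Chromosome 3 held 1 of 134 (0.746%) and chromosome 1 held 7 of 169 (4.14%). Chromosomes 2, 4, 5 and 7 together held 105 of the 200. The single bin on chromosome 3 was chr3:89000001-90000000, with Slc50a1, Kcnn3, Ubap2l and the interleukin receptor gene Il6ra (0.13 and 0.16 in WT, 0.17 in KO).

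Every one of the highest bins on chromosomes 2 (20), 3 (1), 4 (21) and 10 (6) was called above input in KO by edgeR, where 10.3%, 5.26%, 11% and 10.2% of the other eligible bins of these chromosomes were. On chromosome 14 it was 5 of 8 against 13.3%, on chromosome 6 it was 6 of 9 against 9.65%, and on chromosome 11 it was 9 of 13 against 25.3%. KO ChIP reads per bin, and with them the precision of a call, differed between chromosomes. The highest-ranked bin of chromosome 10 held 3209 and that of chromosome 11 held 1647. The shares were not matched for this.

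**Figure D3:**
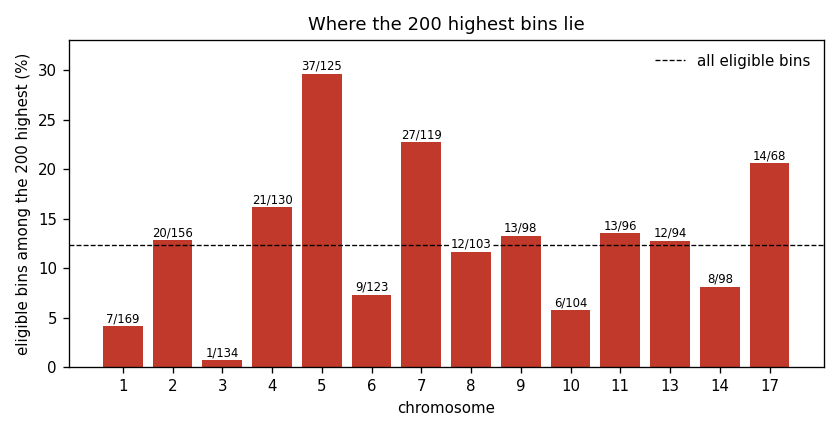
Bars give the percentage of each chromosome's eligible 1 Mb bins that are among the 200 highest, with the numbers above them, and the dashed line marks 12.4% for all eligible bins. Chromosome 5 stands at 29.6% and chromosome 3 at 0.746%.

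Many of the bins were neighbours. They formed 103 runs, of which 60 were single bins, and 140 of the 200 bins lay in the 43 runs of 2 or more. The longest run, chr5:111000001-122000000, spans 11 bins and 139 protein-coding genes. Its WT means ran from 0.19 to 0.42 and its KO values from 0.099 to 0.40. All 11 KO values were above 0, and the lowest belonged to the bin of Med13l, a Mediator subunit gene (0.21 and 0.19 in WT).

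Within this run, the bin of Ksr2, Taok3 and Nos1 (neuronal nitric oxide synthase) had 0.35, 0.32 and 0.30 in WT 1, WT 2 and KO. The bin of Ccdc60, Srrm4 (a splicing regulator of neurons) and Hspb8 had 0.35, 0.32 and 0.26. The bin of Foxn4, a forkhead transcription factor gene, and Acacb had 0.33, 0.33 and 0.29. The bins of Rplp0, a ribosomal stalk protein gene, with Sirt4 (0.20, 0.20 and 0.24) and of Rpl6, Cux2 and Atxn2 (0.19, 0.19 and 0.17) were among the lower ones of the run. In the 10 bins flanking the run, 5 per side, WT 1 ran from -0.083 to 0.28 and KO from -0.093 to 0.27, and 3 of these 10 bins are themselves among the 200 highest.

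**Figure D4:**
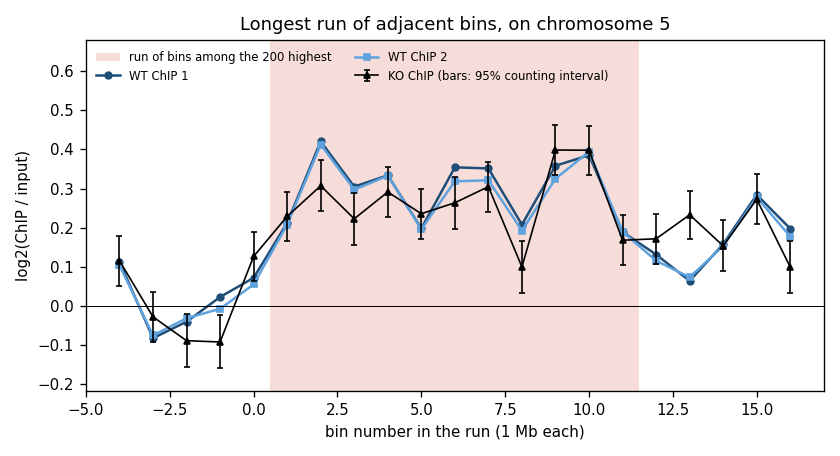
The log2(ChIP/input) of each 1 Mb bin is plotted along the longest run on chromosome 5 (shaded, bins 1 to 11) and 5 bins on each side, for WT ChIP 1, WT ChIP 2 and KO ChIP with 95% counting intervals. KO stays above 0 through the run, from 0.099 in bin 8 to 0.40 in bins 9 and 10.

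Other runs held 7 bins each. The run chr4:137000001-144000000 contains the starts of 107 protein-coding genes, among them Wnt4, Pax7, the Padi genes, Spen and Kazn, and its KO values ran from 0.15 to 0.51. The run chr17:25000001-32000000 contains 153, with KO values from 0.052 to 0.37. The runs chr5:131000001-138000000 and chr13:53000001-60000000 contain 103 and 87, with KO values from 0.12 to 0.27 and from 0.074 to 0.30. No bin of these 4 runs had a KO value below 0.

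The highest bins held more genes than the others. A bin held the starts of a median of 12 protein-coding genes (quartiles 5 and 19), against 5 (1 and 11) in the other eligible bins and 2 in the 200 lowest. In all, 3088 protein-coding genes start in the 200 bins. Genes covered 55.0% of a highest bin at the median, 40.1% of another bin and 21.6% of one of the 200 lowest. Bins with at least 20 genes numbered 48 (24.0%) against 153 (10.8%), and bins with no gene 5 (2.50%) against 179 (12.6%).

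Small RNA genes differed by class. MicroRNA genes were present in 93 of the 200 bins (46.5%) and in 319 of the others (22.5%). Transfer RNA genes, transcribed by RNA polymerase III, were present in 14 (7.00%) and 72 (5.08%), and small nucleolar RNA genes in 65 (32.5%) and 444 (31.3%). The microRNA shares rose with the number of protein-coding genes. With 0 to 1 genes they were 12.5% in the highest and 9.02% in the other bins. They were 11.5% and 15.6% with 2 to 4 genes, and 26.7% and 23.5% with 5 to 8. With 9 to 14 genes they were 46.8% and 24.4%, and with 15 to 66 genes 71.6% and 47.7%. These shares were not tested.

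The highest WT values were not those of the bins with the most genes. Ranks 1 to 20 held a median of 5.5 genes. Within the 200, r between the WT mean and gene number was -0.079, and between the KO value and gene number it was 0.23. Over all eligible bins these were 0.38 and 0.45. The choice of bins cuts the range of the WT mean, so r within the 200 cannot be compared with r over all eligible bins. The bin with the most genes, chr7:45000001-46000000, starts 66 protein-coding genes, among them the ribosomal protein genes Rpl13a and Rpl18 and the hormone gene Fgf21. It had 54883 and 54203 reads in WT ChIP, 63355 in WT input, 1584 in KO ChIP and 59193 in KO input, or 0.16, 0.20 and 0.24 (edgeR adjusted p = 5.963e-07). At the other end, the 5 bins with no protein-coding start had KO values of 0.041, 0.23, 0.15, 0.099 and 0.049.

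The difference between the highest and the other bins in KO was present in each of 5 classes of gene number. Among bins with 0 to 1 genes, 12 of 16 highest bins and 6 of 366 others were called above input by edgeR (75% and 1.64%). With 2 to 4 genes the counts were 19 of 26 and 15 of 276, with 5 to 8 genes 25 of 30 and 24 of 307, and with 9 to 14 genes 41 of 47 and 38 of 225. With 15 to 66 genes they were 78 of 81 and 79 of 243 (96.3% and 32.5%). Set against other eligible bins of the same gene-number class, the median KO difference of the 200 bins was 0.19.

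**Figure D5:**
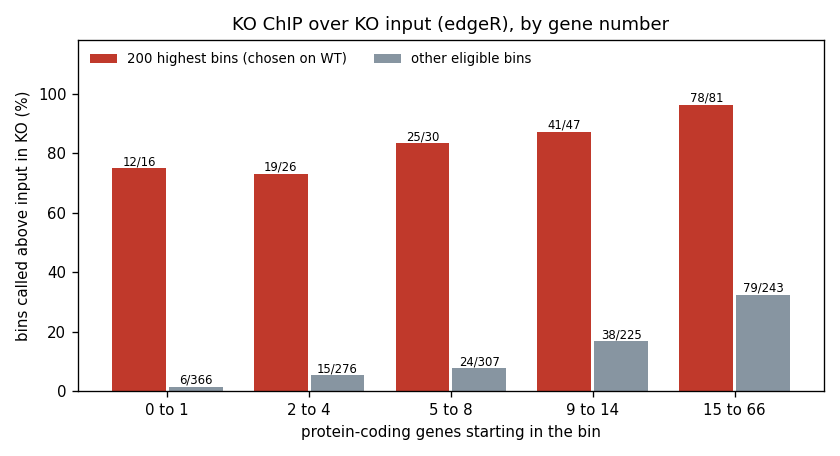
Bars give the percentage of bins called above input in KO ChIP over KO input by edgeR (adjusted p below 0.05), for the 200 highest bins (red) and the other eligible bins (grey), in 5 classes of protein-coding gene number, with counts above the bars. The red bars run from 73.1% to 96.3% and the grey ones from 1.64% to 32.5%.

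The promoters in the highest bins were richer in CpG. RefSeq held promoters for 79.9% of protein-coding genes, and 3215 promoters of 2589 genes start in the 200 bins, with a median of 16 CpG per 300 bases (quartiles 6 and 26) and a GC content of 59.3%. The 11563 promoters of the other eligible bins had 12 (3 and 24) and 55.7%, and all 21263 promoters had 13 and 56.3%. Promoters with at least 20 CpG made up 42.0% in the highest bins, 34.5% in the others, 36.5% in the 200 lowest and 35.9% of all.

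Each motif was searched on both strands. The GC box GGGCGG, the letters bound by Sp1-type factors, was in 55.1% of the promoters of the highest bins, 44.1% of the others and 46.2% of all. The letters TATAAA of the TATA box were in 7.53%, 14.4% and 12.6%. The ETS site CCGGAAGT, which ELK4 and related factors bind, was in 6.13% (197 promoters), 4.85% and 5.15%. The GC box overlaps CpG content, since its letters hold a CpG, as do those of the ETS site. A match is a description of the letters and not of binding.

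Genes of ribosome supply, the process SIRT7 is best known for, lie in gene-rich bins, and of all 324 eligible bins with 15 to 66 genes 25% were among the highest. Beside each list that follows stands a base share of 12.4% of eligible bins among the highest. For calls above input in KO by edgeR, the base shares were 87.5% of the 200 and 11.4% of the other eligible bins. Calls near these shares describe the 200 bins and not the genes of a list. Cytosolic ribosomal protein genes started in 50 eligible bins, of which 15 (30.0%) were among the 200 highest, and these 50 bins held a median of 17 genes. Their KO median was 0.23, against 0.051 in the 35 other bins of the list, and 14 of 15 were called above input in KO by edgeR, against 12 of 35. Examples are Rpl36 at chr17:56000001-57000000 (0.26, 0.27 and 0.31 in WT 1, WT 2 and KO) and Rps15 at chr10:80000001-81000000 (0.24, 0.27 and 0.32).

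Mitochondrial ribosomal protein genes were in 53 eligible bins with a median of 19 genes, 14 of them (26.4%) among the highest, and all 14 were called in KO, against 11 of 39. For RNA polymerase I subunits and nucleolar proteins it was 5 of 19 (26.3%, with a median of 15 genes per bin). These 5 had a KO median of 0.18 against 0.047 in the other 14, and 5 of 5 were called against 3 of 14. Among them were Fbl, encoding the rRNA methyltransferase fibrillarin, in chr7:28000001-29000000 (0.17, 0.20 and 0.27), and Polr1e in chr4:45000001-46000000 (0.18, 0.17 and 0.18). Ttf1, encoding a transcription termination factor for RNA polymerase I, in chr2:29000001-30000000 was lower in KO (0.14, 0.17 and 0.10) and was called with an adjusted p of 0.015.

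Sirtuin genes started in 5 eligible bins with a median of 23 genes, and 3 were among the highest. They were Sirt6 in chr10:81000001-82000000 (0.22, 0.26 and 0.25), Sirt4 in chr5:115000001-116000000 and Sirt2 in chr7:28000001-29000000 (0.17, 0.20 and 0.27), all called in KO, and 0 of the other two bins were called. Of 6 eligible bins with factors linked to SIRT7, which held a median of 15.5 genes, 1 was among the highest. It holds Elk4, in chr1:132000001-133000000, with 60672 and 57764 reads in WT ChIP, 67182 in WT input, 1627 in KO ChIP and 65443 in KO input, or 0.22, 0.20 and 0.13 (KO counting error 0.036, edgeR adjusted p = 0.006612). The KO value of the Elk4 bin lay below both WT values.

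Xist is the RNA that silences 1 X chromosome in female cells. Autosomal genes of factors linked to it were in 17 eligible bins with a median of 11 genes, and 5 (29.4%) were among the highest. These had a KO median of 0.27 against 0.020 in the other 12, with 5 of 5 and 1 of 12 called above input by edgeR. Spen, encoding the RNA-binding repressor that Xist recruits, in chr4:141000001-142000000 had 0.23, 0.23 and 0.30. Ring1, a Polycomb ubiquitin ligase gene, in chr17:34000001-35000000 had 0.22, 0.22 and 0.27, and Ciz1 in chr2:32000001-33000000 had 0.17, 0.19 and 0.18. The bin of Ring1 starts 53 protein-coding genes and that of Spen 29, so a value of the bin is not a value of the gene.

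Developmental transcription factor genes were in 75 eligible bins with a median of 9 genes, and 23 of these bins (30.7%) were among the highest. The 23 had a KO median of 0.19 against 0.0075 in the other 52, with 20 of 23 called against 10 of 52. Besides the bins of Lhx5, Tbx3 and Foxn4, Pax7, a regulator of muscle stem cells, in chr4:139000001-140000000 had 0.30, 0.32 and 0.33. Genes of signalling ligands were in 35 eligible bins, 10 of them (28.6%) among the highest, with 9 called against 5 of 25. Those 35 bins held a median of 12 genes. Fgf6 and Fgf23 in chr6:127000001-128000000 had 0.26, 0.24 and 0.27, and Wnt7a in chr6:91000001-92000000 had 0.24, 0.23 and 0.24.

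Zinc-finger genes, the largest family of DNA-binding proteins, were in 29 highest bins of 131 eligible (22.1%), with 28 of 29 called against 27 of 102. Their highest bin was that of Zfp423, a regulator of fat cell precursors, in chr8:87000001-88000000 (0.34, 0.31 and 0.27). Solute carriers, the membrane transporters, were in 43 of 186 (23.1%), with 40 called against 39 of 143. Cytochrome P450 genes were in 5 of 22 (22.7%), and all 5 were called against 5 of 17. Housekeeping genes were in 4 of 12 (33.3%), and all 4 were called in KO, against 2 of 8. The bins of Eef2, Gusb and Tubb5 were among them. The eligible bins of these lists, in the order given, held medians of 17, 13.5, 14.5 and 17.5 genes.

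Genes of fibroblasts were in 4 highest bins of 18 eligible (22.2%), 3 of them called in KO, against 5 of 14. The 18 eligible bins held a median of 11.5 genes. Tagln, encoding transgelin of the actin cytoskeleton, in chr9:45000001-46000000 had 0.31, 0.27 and 0.24 (edgeR adjusted p = 5.215e-08). Col5a1, a collagen gene, in chr2:27000001-28000000 had 0.21, 0.23 and 0.20, and Pdgfra, a growth factor receptor gene, in chr5:75000001-76000000 had 0.20, 0.17 and 0.14. Sparc, a matrix protein gene, in chr11:55000001-56000000 had 0.17, 0.14 and 0.093 and was not called (adjusted p = 0.07038).

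Other clustered gene families differed in their share among the highest bins, and these shares are small counts with no test. Olfactory receptor genes were in 66 eligible bins, of which 2 (3.03%) were among the highest, and vomeronasal receptor genes in 37, of which 2 (5.41%) were. Those eligible bins held medians of 22 and 17 genes. No bin of the 11 with histone genes was among the highest, although these bins held a median of 29 genes, and their KO median was 0.026 with 2 called. Bins with Hox genes (0 of 3), protocadherin genes (0 of 8, KO median -0.090) and interferon genes (0 of 2) were not among the highest either. They held medians of 15, 1 and 19 genes, in that order. Major histocompatibility genes were in 2 of 5, keratin genes in 2 of 4 and imprinted genes in 1 of 7, that of Nnat in chr2:157000001-158000000 (0.18, 0.19 and 0.21). The eligible bins of these lists, in the order given, held medians of 42, 39.5 and 7 genes. The histone bins were thus rich in genes and yet outside the highest bins.

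The excess was present on both parental genomes. In the 200 bins the median log2(ChIP/input) of genome1 reads was 0.21 and 0.21 in WT and 0.24 in KO, and that of genome2 reads was 0.21, 0.22 and 0.21. Reads that could not be assigned gave 0.18, 0.16 and 0.18. In the other eligible bins the genome1 medians were -0.036, -0.038 and -0.039, and the genome2 medians -0.032, -0.032 and -0.024. These values need at least 100 reads of the genome in each library compared, which left 199 of the 200 bins for genome1 and 198 for genome2 in KO.

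In KO, 190 of 199 bins were above 0 on genome1 (95.5%) and 186 of 198 on genome2 (93.9%). Both were above 0 in 177 of 198 (89.4%), against 339 of 1334 other bins (25.4%). In WT, where the choice of bins fixes much of this, both genomes were above 0 in both libraries in 198 of 198. The median of genome1 minus genome2 was -0.0051 and -0.0086 in WT and 0.017 in KO. With a median of 508 and 545 KO ChIP reads per bin on genome1 and genome2, single bins cannot show a small difference between them. After subtraction of the estimated WT reads the KO medians were 0.22 on genome1 and 0.22 on genome2.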

How the data were processed

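SIRT7 ChIP and input DNA were sequenced in 5 libraries. The authors deposited whole-number counts of reads per 1 Mb bin, with columns for every read and for the reads placed on genome1, on genome2 or on neither. Bowtie2 2.2.9, SAMtools 0.1.19, Trimmomatic 0.36 and FastQC 0.11.3 are named, with mm10, in the submitters' processing notes. For this placement, no method was found in the labels or file headers. Per the labels' protocols, cells were fixed in 1% formaldehyde for 10 min, chromatin was sheared to 300 to 500 bp, and 1% was kept as input. A second table, of ratios per bin, was not used.

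The log2(ChIP/input) divides each library by its autosomal total and uses the input of the same genotype. Counting errors come from the reads of both libraries. Counts of the 2582 autosomal and X bins with a mean of at least 100 reads were fitted with edgeR 4.0.16 in R 4.3.3 (quasi-likelihood, TMM, 4 group means) with the dispersion raised to at least 1e-04, and p-values were adjusted by Benjamini-Hochberg and held against 0.05. The floor was taken over from an earlier processing of these data, with its calls known. In the 2513 bins with a fitted dispersion under it, edgeR returned a median deviance of 98.3 where the formula gives 0.463. With the floor, over all 2582 tested bins, both gave 0.456. The test was also run on simulated counts, drawn with the floor as their dispersion. Such counts cannot show whether that dispersion holds for the KO groups, which have 1 library each. DESeq2 1.42.0 and limma 3.58.1 were alternatives, as were other scalings, filters, pseudocounts, numbers of bins and subtraction of WT-like reads. That fraction was estimated from genome1 shares per autosome, and was 7.79% on the 5 autosomes with no eligible bins.

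Genes are RefSeq protein-coding genes (GRCm38.p6) whose start lies in the bin. The 200 bins and the 22 gene lists were chosen with earlier results of these data known, so a list's place among the bins is a description. Bins were named by rule: the 10 highest, 3 on each side of the threshold, the 5 highest and 5 lowest in KO, the longest run, and up to 4 bins per list. Bins with the most genes or none, the single bin on chromosome 3, the uncalled bin ranked highest in WT and the runs of 7 were added after their values were seen. In a bin, genes of the lists were named first, then the longest. Some bins and genes that this rule names are not reported here. Sequences are from RefSeq, and no genome was used.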

Additional observations from a re-analysis of the deposited data

How the results depend on the processing

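Of 75 alternative values, 15 moved by more than 1.5 times for counts or by more than the SD between WT libraries for medians. Within these limits limma-voom still lowered the calls to 122. The alternatives for the KO medians and for WT minus KO all stayed above 0. Counts cannot change sign, and the choice of bins fixes the sign of the WT medians. For the number of the 200 bins called above KO input (175), no dispersion floor gave 85, a quasi-Poisson fit 24 and the 100 highest bins alone 96, the last because fewer bins were counted. A floor 2 times as high called 1 bin below input where the main fit called 0. The KO median (0.19) became 0.20 when centred on the eligible bins, 0.24 for the 100 highest and 0.17 for the 300 highest, and the WT median (0.19) became 0.21, 0.24 and 0.16. The median of WT minus KO (0.014) became 0.025 with TMM scaling. Counting all annotated genes gave 25 per bin. Subtraction of estimated WT reads gave allelic KO medians of 0.223 on genome1 and 0.215 on genome2. Choosing the bins again on 1 WT ChIP library gave a KO median of 0.19 to 0.20, a WT median of 0.19 to 0.20 and a WT minus KO of 0.0042 to 0.022. Leaving out a WT ChIP library leaves no residual degree of freedom, so the counts of calls have no such value. Subtracting 2 times the estimated WT reads, chosen after seeing the data, gave 172 calls, where 21.5% of all tested bins were called, and a KO median of 0.20. No paired analysis was possible because only the WT ChIP group has more than 1 library. The KO ChIP library, with 4968189 reads, limits the precision of single bins, and more so of single genomes. Apart from those named, the cause of a move was not tested.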
